A study of Mus musculus with 8 samples.

Results

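The 7 genes described here encode the core of the major histocompatibility complex (MHC) class II machinery of the mouse. They were chosen by symbol from the 25239 gene symbols measured and comprise the class II chains H2-Aa, H2-Ab1 and H2-Eb1, the invariant chain Cd74, the peptide exchange chains H2-DMa and H2-DMb1, and the transactivator Ciita. All 7 passed the filter on low values (a mean of at least 0.1 CPM, reads scaled to a common library total, over the 8 libraries), as 18123 symbols did, and each also had a mean of at least 0.1 CPM in the sham group and in both BCAS groups.

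Class II molecules are pairs of an alpha and a beta chain that display peptides from engulfed proteins to CD4 T cells. The invariant chain fills the groove of a new pair until lysosomal proteases degrade it, and H2-DM then exchanges the last fragment for a peptide. Ciita is recruited by proteins bound at the class II promoters and switches these genes on. In healthy brain tissue class II is scarce, microglia can gain it when activated, and dendritic cells and some macrophages of the brain borders carry it at rest.

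RNA was sequenced from the corpus callosum, the white matter tract joining the hemispheres, of mice on a C57BL/6 background that were used at 8 to 12 weeks of age. In the stenosis model (BCAS) a microcoil narrows the common carotid artery on both sides, so that less blood reaches the brain, and sham mice had the same surgery with no coil. Wild-type (WT) mice were male C57BL/6J. The mice labelled TRPA1-KO, whose sex the study's methods do not state, are described as a Trpa1 knockout line that had been backcrossed to C57BL/6J for at least 10 generations. For each label there were 3 BCAS libraries (1 each on postoperative days 7, 10 and 14) and 1 sham library (day 14), so no day had a replicate, days 7 and 10 had no sham library of their own, and the spread within a group holds the difference between days. Each library held between 7896071 and 12952093 reads on genes, and 3 reads, used here as the detection floor, were worth 0.235 to 0.378 CPM.

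The gene named in the labels went against them. Under the label WT, Trpa1 was at 0.0782 CPM (1 read) in sham and at 0 in each BCAS library. Under the label TRPA1-KO, sham stood at 0.959 CPM (10 reads), and BCAS at 1.22, 0.320 and 0.728 CPM (11, 3 and 7 reads) on days 7, 10 and 14. The groups did not overlap, as for 2.46% of all genes, with more reads under the label TRPA1-KO (log2 fold change WT against TRPA1-KO -0.80 ± 0.17 SE over 4 and 4 libraries, limma adjusted p = 0.56). The deposited values are 1 per gene and do not show which exons the reads cover. Libraries are therefore called by their label below, and every direction between the labels rests on labels that this gene goes against.

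Promoters are shown because they hold the boxes bound by the proteins that recruit Ciita. From the RefSeq promoter table of GRCm38.p6, 4 of the 7 members had an entry (H2-Aa, H2-Eb1, H2-DMa and H2-DMb1), and the 120 bases before the start were searched on both strands for the Y box (TGATTGG, bound by NF-Y), the X2 box (TGACGTCA, bound by CREB proteins) and an X box form (AAC, any base, then GATGATG, bound by RFX). The letters of the X box were chosen after reading these sequences. Capitals mark the matches, each sequence runs 5′ to 3′ on the strand of the gene and ends 1 base before the start. No matches overlapped. The window of H2-Aa lies at chr17:34287824-34287943 (minus strand), that of H2-Eb1 at chr17:34305747-34305866 and that of H2-DMb1 at chr17:34153071-34153190 (both plus strand).
H2-Aa: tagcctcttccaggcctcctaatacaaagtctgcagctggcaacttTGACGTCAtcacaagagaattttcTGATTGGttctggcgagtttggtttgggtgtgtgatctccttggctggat
H2-Eb1: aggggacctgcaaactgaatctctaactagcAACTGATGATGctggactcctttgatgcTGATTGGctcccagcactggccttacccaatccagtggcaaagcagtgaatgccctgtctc
H2-DMb1: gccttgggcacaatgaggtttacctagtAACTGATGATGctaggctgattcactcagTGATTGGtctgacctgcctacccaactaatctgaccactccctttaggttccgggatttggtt

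The Y box began 50, 61 and 63 bases before the start in H2-Aa, H2-Eb1 and H2-DMb1. The X box form began at 89 bases in H2-Eb1 and 92 in H2-DMb1, and the X2 box at 74 in H2-Aa. Of all 32851 promoter windows of this length, 5.15% held the Y box, 1.24% the X2 box and 0.0213% (7 windows) the X box form. The 2 windows of H2-DMa, at chr17:34122712-34122831 and chr17:34125398-34125517, held none of these letters. Both precede starts inside the span of the gene, which begins at chr17:34119693. The bases before that position were not searched. H2-DMb2, H2-Oa, H2-Ob and H2-Eb2 of the same region also held the Y box, at 92, 45, 59 and 102 bases. These are matches of letters and not measured binding.

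The 5 H2 genes are neighbours on chromosome 17, with H2-DMa at chr17:34119693-34139101, H2-DMb1 at chr17:34153191-34160229, H2-Ab1 at chr17:34263227-34269418, H2-Aa at chr17:34282744-34287823 and H2-Eb1 at chr17:34305867-34316674. Ciita lies at chr16:10480014-10531064 and Cd74 on chromosome 18. H2-Eb1 overlaps the antisense gene Gm20513. H2-DMa overlaps Brd2 on the opposite strand (176 to 200.1 CPM), Ciita overlaps Dexi on the opposite strand (26.5 to 32.0 CPM), and Cd74 contains the microRNA gene Mir5107 on its own strand. The counting's strand setting is not given in the sources used here, so reads of H2-DMa, H2-Eb1 and Ciita cannot be told apart from those of their antisense neighbours where they overlap.

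Class II chain and invariant chain transcripts were high in 2 libraries, those labelled WT on days 7 and 10 after BCAS, and far lower in the other 6. In those 2 libraries the summed reads of H2-Aa, H2-Ab1, H2-Eb1 and Cd74 were 166 and 139 (14.8 and 17.5 CPM), against 10 (1.10 CPM) in the library labelled WT of day 14. The libraries labelled TRPA1-KO held 21, 17 and 30 reads (2.34, 1.82 and 3.12 CPM) on days 7, 10 and 14, and the sham libraries 26 (WT) and 17 (TRPA1-KO) reads (2.03 and 1.63 CPM). Relative to the mean of the sham libraries the sums were 8.06-fold and 9.56-fold on days 7 and 10 and 0.599-fold on day 14 under the label WT, and 1.28-fold, 0.991-fold and 1.70-fold under the label TRPA1-KO. The library labelled TRPA1-KO of day 14 was 1.91-fold of the sham library of its label (95% exact counting interval 1.02 to 3.70) and 1.53-fold of the WT sham library (0.877 to 2.70). In bulk tissue, fewer cells of a type and less RNA per cell cannot be told apart.

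**Figure D1:**
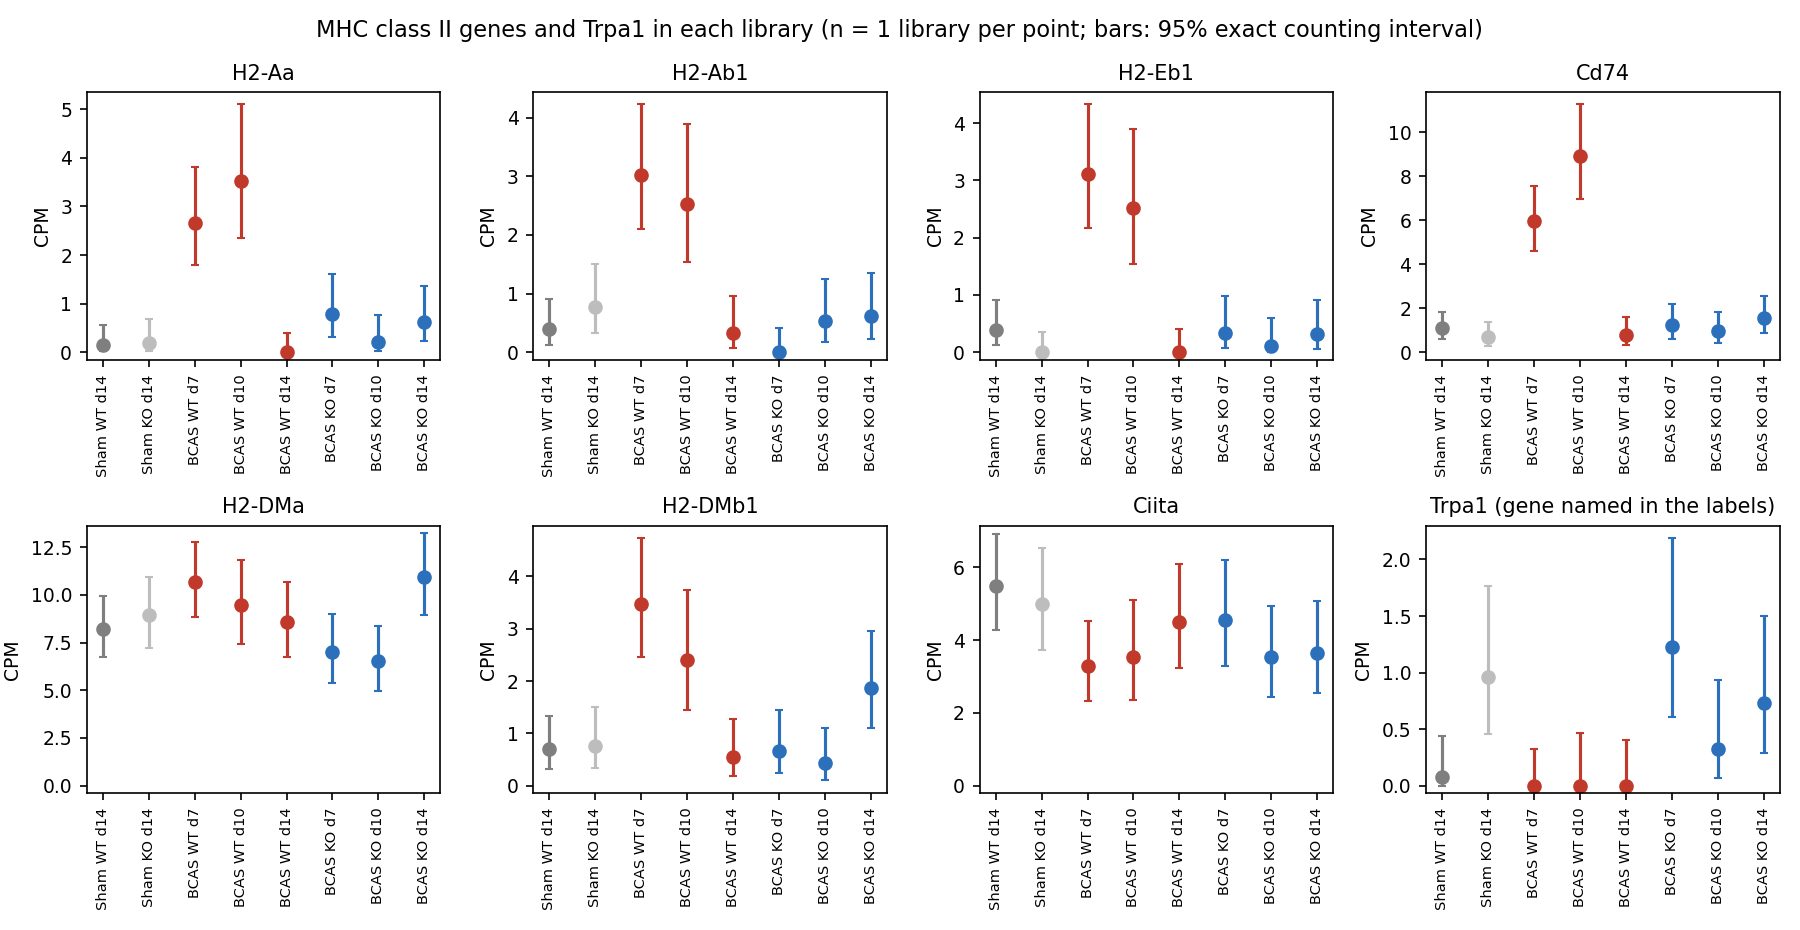
Level in CPM (linear axis) of the 7 class II genes and of Trpa1 in each of the 8 libraries, 1 point per library with its 95% exact counting interval (grey sham, red BCAS labelled WT, blue BCAS labelled TRPA1-KO). H2-Aa, H2-Ab1, H2-Eb1, Cd74 and H2-DMb1 are highest in the libraries labelled WT of days 7 and 10, while H2-DMa and Ciita are not.

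H2-Aa, the alpha chain of the I-A molecule, was at 2.67 and 3.53 CPM (30 and 28 reads) in the libraries labelled WT of days 7 and 10 and had 0 reads on day 14. It was at 0.779, 0.214 and 0.624 CPM in those labelled TRPA1-KO on days 7, 10 and 14, and at 0.156 (WT) and 0.192 CPM (TRPA1-KO) in sham, where each library held 2 reads. The BCAS groups overlapped because the library with the highest value and the one with no reads carried the same label.

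H2-Ab1, the beta chain that pairs with H2-Aa, was at 3.02, 2.52 and 0.329 CPM under the label WT on days 7, 10 and 14 of BCAS. Those labelled TRPA1-KO held 0, 0.534 and 0.624 CPM on these days, and the sham libraries 0.391 (WT) and 0.767 CPM (TRPA1-KO). Its lowest library was thus not the library labelled WT of day 14 but the one labelled TRPA1-KO of day 7, which held 0 reads against 34 on the same day under the other label.

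H2-Eb1, the beta chain of the I-E molecule, was at 3.11 and 2.52 CPM in the libraries labelled WT of days 7 and 10 and had 0 reads on day 14. It was at 0.334, 0.107 and 0.312 CPM under the label TRPA1-KO, and at 0.391 (WT) and 0 CPM (TRPA1-KO) in sham. All values outside the 2 high libraries rested on 5 reads or fewer. H2-Ea, the alpha chain that pairs with H2-Eb1 and that lacks a working promoter in the C57BL/6 strain, had 0 reads in every library, as did H2-Eb2.

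Cd74, the invariant chain, was at 5.96, 8.95 and 0.768 CPM (67, 71 and 7 reads) under the label WT on days 7, 10 and 14 of BCAS. Those labelled TRPA1-KO held 1.22, 0.961 and 1.56 CPM, and the sham libraries 1.10 (WT) and 0.671 CPM (TRPA1-KO). As for H2-Aa, the highest value was that of day 10 and not of day 7.

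The chains of the H2-DM exchange factor differed from each other. H2-DMb1 was at 3.47, 2.39 and 0.549 CPM in the libraries labelled WT on days 7, 10 and 14, at 0.668, 0.427 and 1.87 CPM in those labelled TRPA1-KO, and at 0.704 (WT) and 0.767 CPM (TRPA1-KO) in sham. H2-DMa was at 10.7, 9.45 and 8.56 CPM, at 7.01, 6.51 and 10.9 CPM, and at 8.21 (WT) and 8.92 CPM (TRPA1-KO) in the same order, so that its highest library was the one labelled TRPA1-KO of day 14. For H2-DMb1 too, that library was the highest outside the 2 high libraries. H2-DMb1 reads are uncertain because its transcript and that of its neighbour H2-DMb2 were identical at 94.3% of 1211 aligned bases.

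Ciita, the transactivator, showed no such peak. It was at 3.29, 3.53 and 4.50 CPM under the label WT on days 7, 10 and 14 of BCAS, at 4.56, 3.52 and 3.64 CPM in those labelled TRPA1-KO, and at 5.48 (WT) and 4.99 CPM (TRPA1-KO) in sham. Both sham libraries were above all 6 BCAS libraries, and the 2 libraries with the most class II chain reads were the lowest and the third lowest for Ciita.

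Per kilobase of its longest protein-coding transcript, the order of mean levels over the 8 libraries was H2-DMa (4.38 ± 0.784 CPM per kb, SD, n = 8), Cd74 (1.88 ± 2.19), H2-DMb1 (0.966 ± 0.788), H2-Aa (0.904 ± 1.18), H2-Ab1 (0.845 ± 0.916), Ciita (0.697 ± 0.134) and H2-Eb1 (0.508 ± 0.740). H2-DMa stood above the others in every library but 1, and Cd74 exceeded it in the library labelled WT of day 10 (6.35 against 4.71 CPM per kb). The neighbours from Cd74 down to H2-Eb1 differed by less than the SD of Cd74 or of the chains. The order differed between libraries. In the sham libraries Ciita was second after H2-DMa, at 0.912 CPM per kb (WT) and 0.830 CPM per kb (TRPA1-KO), against 0.777 and 0.476 CPM per kb for Cd74. It was also second in the library labelled WT of day 14, at 0.749 CPM per kb against 0.545 CPM per kb for Cd74.

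Over the 8 libraries the log2(CPM + 1) values of H2-Aa, H2-Ab1, H2-Eb1 and Cd74 correlated with each other at Pearson's r of 0.82 to 0.97, a description over 8 libraries in which 2 hold most of the signal. With the mean z score of these 4 genes, H2-DMb1 had r = 0.90, H2-DMa 0.55 and Ciita -0.65. The libraries labelled WT of days 7 and 10 were the 2 highest for 5 of the 7 members (H2-Aa, H2-Ab1, H2-Eb1, Cd74 and H2-DMb1), as for 8.93% of all 18123 genes. The library of day 7 alone was the highest for 21.9% of all genes and for 3 of the 7 members.

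Set against the mean of the sham libraries, the members' median log2(CPM + 1) was higher by 1.36 and 1.17 in the libraries labelled WT of days 7 and 10, with 6 of 7 members above the sham mean in each. On day 14 it was lower by 0.18 (value -0.18), with 0 of 7 above. Under the label TRPA1-KO the medians were -0.06, -0.09 and 0.32 on days 7, 10 and 14, with 3, 2 and 6 members above. The median over all genes was within 0.01 of 0 in each library. The sham libraries themselves differed from their mean by -0.02 and 0.02.

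Next, the labels were compared on each day, where 1 library stood against 1 and the counting intervals describe these libraries and not the conditions. On day 7, Cd74 was 4.87-fold higher under the label WT (95% exact counting interval 2.55 to 10.2) and H2-Eb1 9.32-fold (2.94 to 47.4). H2-Ab1, with 0 reads under the label TRPA1-KO, was at least 9.05-fold higher against a floor of 3 reads per library. On day 10, Cd74 was 9.31-fold higher (4.64 to 21.2) and H2-Ab1 4.72-fold (1.72 to 16.1). H2-Aa had 2 reads under the label TRPA1-KO, below the floor, so only the lower end of its interval (4.17-fold) is given. The interval lay above 1 for 5 members on day 7 and 6 on day 10, against 17.6% and 11.4% of all genes, and Ciita was at 0.721-fold on day 7 with an interval that spans 1 (up to 1.15), and on day 10 its interval also spans 1 (0.583 to 1.71).

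On day 14 the direction was the other way for 6 of the 7 members. H2-DMb1 was 3.41-fold higher under the label TRPA1-KO (1.22 to 11.8). Among single members with reads in both libraries of that day, it was the sole one whose interval did not span 1. H2-Aa and H2-Eb1, with 0 reads under the label WT, were given no interval. An interval below 1 (WT over TRPA1-KO) was found for 10.5% of all genes. Cd74 was 2.03-fold higher under that label (0.780 to 5.89) and H2-DMa 1.28-fold (0.943 to 1.73), both with intervals that span 1. H2-Aa was at least 1.90-fold lower under the label WT, against the floor, and for H2-Eb1 both libraries were at or under the floor. The summed reads of the 4 chain genes were 6.31-fold (upper bound 10.5) and 9.65-fold (5.81 to 17.0) higher under the label WT on days 7 and 10, and 0.352-fold (0.153 to 0.739) on day 14. Of all genes, 51%, 49.6% and 48.7% were higher under the label WT on days 7, 10 and 14.

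**Figure D2:**
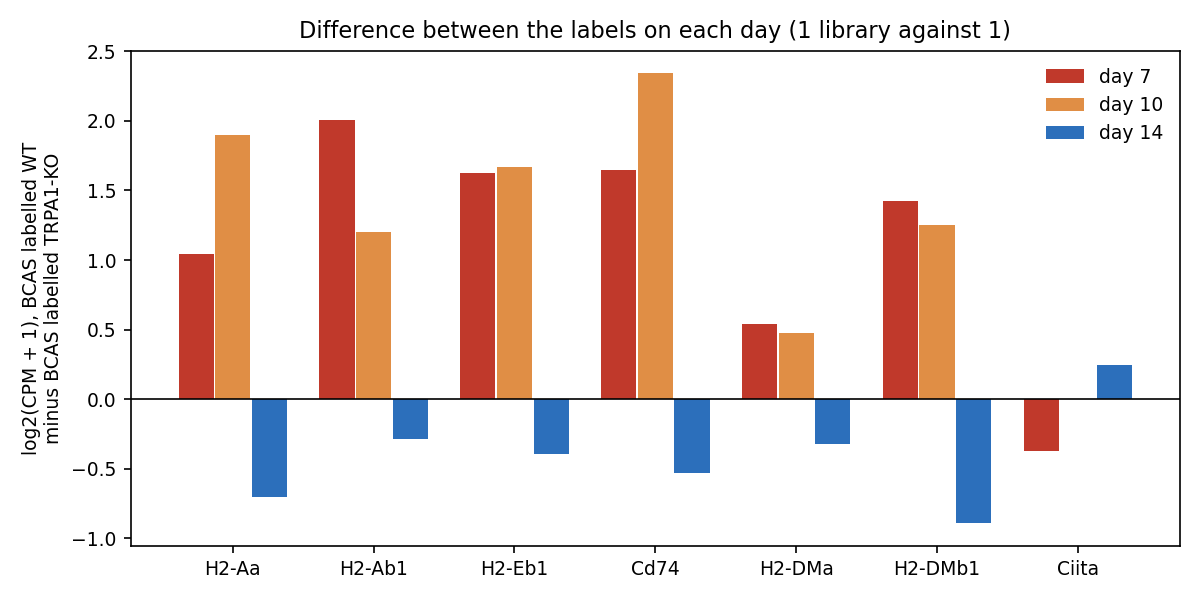
Difference in log2(CPM + 1) between the BCAS library labelled WT and the one labelled TRPA1-KO on days 7 (red), 10 (orange) and 14 (blue) for each class II gene, 1 library against 1 with no replicate. For the 6 genes other than Ciita, the bars of days 7 and 10 are above 0 and those of day 14 below 0, and Ciita is below 0 on day 7 and near 0 on day 10.

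With the 3 days taken as replicates of a label, the BCAS libraries labelled WT were compared with those labelled TRPA1-KO. The fitted log2 fold change of CPM + 1, which understates the change of genes as low as these, was 1.15 ± 0.52 (SE) for Cd74, 0.97 ± 0.39 for H2-Ab1, 0.97 ± 0.45 for H2-Eb1, 0.75 ± 0.48 for H2-Aa, 0.59 ± 0.39 for H2-DMb1, 0.23 ± 0.20 for H2-DMa and -0.04 ± 0.20 for Ciita. H2-Ab1 alone was higher with an unadjusted p under 0.05 (limma p = 0.0311, exact permutation p = 0.30), which is 1 of 7 members against 2.4% of all genes. Cd74 (limma p = 0.0511, exact permutation p = 0.40) and H2-Eb1 (limma p = 0.0555, exact permutation p = 0.40) came next. After adjustment 0 of 7 members and 0.0166% of all genes passed (limma adjusted p = 0.98 to 0.99 for the members). The groups overlapped for every member, against 9.21% of all genes without overlap, and 3 against 3 libraries cannot reach an exact permutation p below 0.10. The members' median was 0.75, and that over all genes 0.00.

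This comparison depended on the library labelled WT of day 14. Without it, the median was 1.42, 5 members had a limma p under 0.05 against 10.2% of all genes, and H2-Eb1 (1.61) and Cd74 (1.90) passed the adjusted threshold (limma adjusted p = 0.0338 for each, over 2 and 3 libraries), as did 0.16% of all genes. Leaving it out also raised the number of genes with a p under 0.05 from 761 to 1846. Without the library of day 7 or of day 10, 0 members had a p under 0.05, where 617 and 597 of all 18123 genes had one with the WT library left out and 614 and 325 with the TRPA1-KO library left out. Without the library labelled TRPA1-KO of day 14, 2 members and 843 genes in all had one.

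Relative to sham, the BCAS group labelled WT was higher for Cd74 by 1.41 ± 0.55 (SE) on the log2 scale (limma p = 0.0256, exact permutation p = 0.30). H2-Aa (1.12 ± 0.50, limma p = 0.0458) and H2-Eb1 (1.05 ± 0.48, limma p = 0.0496) each had an exact permutation p = 0.40. Thus 3 of 7 members were higher with an unadjusted p under 0.05, against 2.44% of all genes. H2-Ab1 was at 0.76 ± 0.41, H2-DMb1 at 0.72 ± 0.41, H2-DMa at 0.14 ± 0.21 and Ciita at -0.39 ± 0.20. Ciita was the sole member whose groups did not overlap, with both sham libraries higher, as for 11% of all genes. The limma adjusted p was 0.89 to 0.97 for the 7 members, 0% of all genes passed it, and without the library of day 14 the 3 genes passed (H2-Aa 1.80, H2-Eb1 1.69 and Cd74 2.15, limma adjusted p = 0.0181, 0.0181 and 0.0125), as did 0.248% of all genes. The number of genes with a p under 0.05 was then 2013, against 988 with all libraries. Without the WT or the TRPA1-KO sham library 0 members had a limma p under 0.05, where 745 and 357 of all 18123 genes had one, and without WT day 7 or day 10 it was also 0 members, where 959 and 830 genes had one. Without the TRPA1-KO BCAS library of day 7, 10 or 14, 1 member had one, beside 938, 820 and 958 genes in all.

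For the BCAS libraries labelled TRPA1-KO against the same sham libraries, the fitted changes were smaller. They were 0.37 ± 0.50 (SE) for H2-Aa, 0.26 ± 0.55 for Cd74, 0.13 ± 0.41 for H2-DMb1, 0.08 ± 0.48 for H2-Eb1, -0.09 ± 0.21 for H2-DMa, -0.21 ± 0.41 for H2-Ab1 and -0.35 ± 0.20 for Ciita. By limma, 0 of 7 members had a p under 0.05, against 2.74% of all genes, and the adjusted p was 1 for each. H2-Aa was higher without overlap, as were 8.41% of all genes, and Ciita lower without overlap, as were 10.2%. Both comparisons share the sham libraries, and the difference between them is the comparison of the labels given above.

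Over all 4 libraries labelled WT against all 4 labelled TRPA1-KO, which allow an exact permutation p of 0.0286, H2-Eb1 had a log2 fold change of 0.84 ± 0.38 (SE) and a limma p of 0.0466, as the sole member under 0.05, where 2.11% of all genes were higher at that threshold. Cd74 was at 0.94 ± 0.47, H2-Ab1 at 0.64 ± 0.35, H2-Aa at 0.55 ± 0.43, H2-DMb1 at 0.43 ± 0.33, H2-DMa at 0.15 ± 0.16 and Ciita at -0.00 ± 0.18. The exact permutation p-values were 0.23 to 1 for the 7 members, and no member's groups were free of overlap, against 2.46% of all genes. By limma the adjusted p was at least 0.99 for each member, and 0.0497% of all genes passed.

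**Figure D3:**
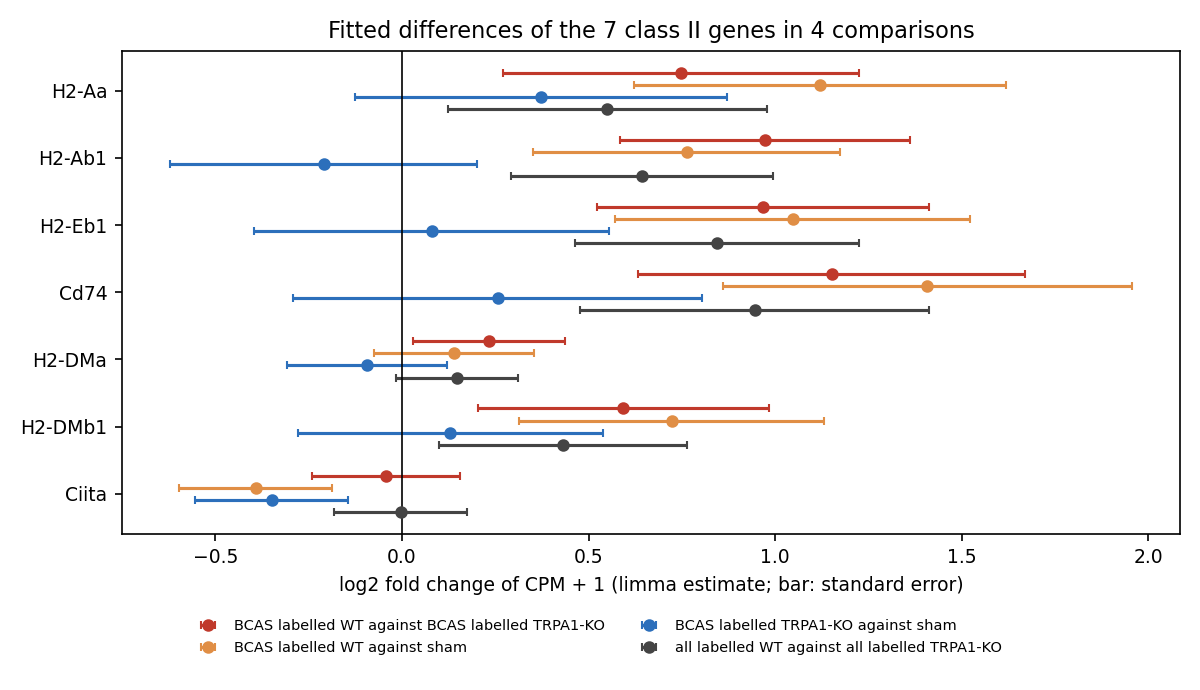
Fitted log2 fold change of CPM + 1 (limma, bar: standard error) of each class II gene in 4 comparisons between libraries grouped by label and operation. Estimates with the group labelled WT first lie between 0.14 and 1.41 for all members but Ciita, whose estimates lie between -0.39 and 0.00, and those of the group labelled TRPA1-KO against sham lie nearer to 0 for the chains and Cd74.

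The other genes of the class II region were low. Of 5 measured (H2-DMb2, H2-Oa, H2-Ob, H2-Ea and H2-Eb2), 3 were tested, and their median was 0.34 between the BCAS groups, with 0 under a p of 0.05. H2-DMb2, a second beta chain of H2-DM, was at 1.87, 1.51 and 0.549 CPM under the label WT on days 7, 10 and 14. It was at 0.334, 0.641 and 0.832 CPM under the label TRPA1-KO on these days, and at 0.469 (WT) and 0.384 CPM (TRPA1-KO) in sham. Under the label WT its log2 fold change against sham was 0.65 ± 0.27 (SE, limma adjusted p = 0.89, unadjusted p under 0.05). H2-Oa, the alpha chain of the H2-DM inhibitor H2-O, was at 0.53 ± 0.23 in the same comparison (limma adjusted p = 0.91, unadjusted p under 0.05), at a mean of 0.720 CPM against 0.192 CPM. H2-Ob, the remaining gene tested, was lower in that comparison (-0.16). It was at 0.711, 0.378 and 0.329 CPM under the label WT, and at 0.939 (WT) and 0.384 CPM (TRPA1-KO) in sham.

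Most lysosomal enzymes that degrade the invariant chain and antigens were more abundant than the chains. For 7 of 9 the 2 highest libraries were those labelled WT of days 7 and 10, as for 8.93% of all genes. The exceptions were Ctsf (60.4 and 50.7 CPM there, 54.6 to 63.4 CPM elsewhere) and Ifi30 (17.8 and 3.15 CPM there, 1.32 to 4.03 CPM elsewhere). Ctse had a mean of 0.0982 CPM and was not tested. Of the 9 tested (proteases and the reductase Ifi30), 8 were higher under the label WT after BCAS, with a median of 0.63 and 6 under a p of 0.05. At that threshold, 2.4% of all genes were higher. Ctss, the protease that makes the last cut in the invariant chain, was at 182, 133 and 54.0 CPM under the label WT on days 7, 10 and 14, at 46.0, 49.0 and 78.3 CPM under the label TRPA1-KO, and at 50.5 (WT) and 55.4 CPM (TRPA1-KO) in sham. Its log2 fold change was 0.95 ± 0.37 (SE, limma adjusted p = 0.98). Ctsb, the most abundant, was at 0.46 ± 0.20, Ctsd at 0.94 ± 0.40, Ctsh at 0.80 ± 0.33, Ctsl at 0.55 ± 0.20 and Lgmn at 0.61 ± 0.26, and Ctsz reached a p under 0.05 against sham (0.84 ± 0.38).

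The proteins that bind the class II promoters did not share the pattern. The 7 genes of this complex (Rfx5, Rfxap, Rfxank, Nfya, Nfyb, Nfyc and Creb1) summed to between 234 and 250 CPM in every library, and their median between the BCAS groups was 0.05. Nfyb, a subunit of NF-Y, was lower under the label WT (-0.28 ± 0.10 SE, limma adjusted p = 0.98), also against sham (-0.26 ± 0.11). Creb1 was the most abundant. Rfx5 was higher in the BCAS libraries labelled WT than in sham (0.34 ± 0.11, limma adjusted p = 0.87), and Rfxank was lower in those labelled TRPA1-KO than in sham (-0.29 ± 0.12, limma adjusted p = 1).

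Interferon-gamma is the classic inducer of Ciita, and Ifng had 0 reads in every library. Of the 9 tested genes of its route, 7 were higher under the label WT between the BCAS groups, with a median of 0.27. Irf8, a factor of myeloid cells, was at 1.25 ± 0.47 against sham under the label WT (limma adjusted p = 0.89). Jak1, the most abundant of the route, lay between 169 and 202 CPM in all libraries.

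Among the genes that act on class II at the cell surface, Marchf8 encodes a ligase that removes class II from it. Marchf8 was lower than in sham under the label WT (-0.24 ± 0.07 SE), without overlap, as were 11% of all genes. Between the BCAS groups it was also lower under that label (-0.18 ± 0.07, limma adjusted p = 0.98). These groups did not overlap, as for 9.21% of all genes in either direction. Cd274, an inhibitory ligand, was higher (0.93 ± 0.34, limma adjusted p = 0.98). Against sham, Lag3, a receptor for class II, was higher under the label WT (0.93 ± 0.36), and Cd4, its activating counterpart, lower under both labels (-0.88 ± 0.24 and -0.56 ± 0.24). Cd83 was higher under both labels (0.49 ± 0.16 and 0.60 ± 0.16), and Cd80 lower under the label TRPA1-KO (-0.56 ± 0.24), each with an unadjusted limma p under 0.05. The adjusted p was at least 0.79 for each of these values against sham.

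MHC class I genes, which display peptides from inside the cell, peaked in the same pair of libraries. All 12 measured genes were higher under the label WT between the BCAS groups, with 6 under a p of 0.05 (H2-K1, H2-D1, B2m, Tap1, Nlrc5 and H2-Q4) and a median of 0.86. At that threshold, 2.4% of all genes were higher. The libraries labelled WT of days 7 and 10 were the 2 highest for all 12, as for 8.93% of all genes. Their summed level was 504, 508 and 184 CPM under the label WT, 192, 179 and 241 CPM under the label TRPA1-KO, and 189 (WT) and 196 CPM (TRPA1-KO) in sham. That is 2.62-fold and 2.64-fold of the sham mean on days 7 and 10, where the 4 class II chain genes stood at 8.06-fold and 9.56-fold, and B2m was the most abundant gene. Tapbp reached a p under 0.05 against sham (0.46 ± 0.19 under the label WT). The 4 class II genes amounted to 2.93% and 3.45% of the class I sum in these libraries and to 0.598% to 1.30% in the other 6.

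The transactivators of the 2 classes differed in these libraries. Nlrc5, which acts on class I promoters as Ciita does on class II, was at 6.94, 5.42 and 1.54 CPM under the label WT on days 7, 10 and 14, at 0.891, 0.427 and 1.35 CPM under the label TRPA1-KO, and at 1.41 (WT) and 1.82 CPM (TRPA1-KO) in sham. Its BCAS groups did not overlap, as for 9.21% of all genes. Its log2 fold change was 1.45 ± 0.39 (SE, limma adjusted p = 0.98), where that of Ciita was -0.04 ± 0.20. The difference between the 2 genes was not tested.

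The genes most like the class II chains over the 8 libraries included class I genes. Among the 15146 genes outside the members that averaged 1 CPM or more, those with the highest Pearson's r to the mean z score of H2-Aa, H2-Ab1, H2-Eb1 and Cd74 were H2-D1 (0.987), H2-L (0.986), B2m (0.982), H2-K1 (0.980), Npr2 (0.979), S100a1 (0.978), Csf3r (0.973), Lxn (0.973), Rasal3 (0.972) and Gm15246 (0.969). H2-K1, a class I heavy chain, was at 70.4, 84.4 and 22.1 CPM under the label WT on days 7, 10 and 14, at 23.6, 20.5 and 32.9 CPM under the label TRPA1-KO, and at 23.7 (WT) and 27.9 CPM (TRPA1-KO) in sham. H2-D1 and H2-L are near copies whose reads may be shared, so they count as 1 pattern. Npr2, S100a1, Lxn and Gm15246 differed far less in size, with Npr2 at 71.8 and 68.4 CPM in the 2 high libraries and 54.3 to 57.3 CPM in the others.

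The marker genes of several cell types moved with the class II genes, and their part in the result was not tested. The summed level of 10 homeostatic microglia markers was 980, 599 and 359 CPM under the label WT on days 7, 10 and 14, 340, 358 and 480 CPM under the label TRPA1-KO, and 364 (WT) and 387 CPM (TRPA1-KO) in sham. All 10 were higher under the label WT between the BCAS groups, with 4 under a p of 0.05 (Tmem119, Csf1r, Gpr34 and Olfml3) and a median of 0.62. At that threshold, 2.4% of all genes were higher. Against sham, Csf1r, Aif1, Gpr34 and Olfml3 were higher under the label WT (0.66 to 1.10, unadjusted p under 0.05), where 2.44% of all genes were higher. The 4 class II genes amounted to 1.51% and 2.92% of this sum in the libraries labelled WT of days 7 and 10, and to 0.306% to 0.688% in the other 6.

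Of 10 disease-associated microglia markers, led by Apoe, all 10 were higher between the BCAS groups with a median of 0.81 and 0 under a p of 0.05, and the sum was 2151, 1122 and 966 CPM under the label WT, 1016, 1016 and 1125 CPM under the label TRPA1-KO, and 967 (WT) and 1083 CPM (TRPA1-KO) in sham. Against sham, Trem2 (1.08 ± 0.39 SE), Tyrobp (1.12 ± 0.46), Clec7a (1.75 ± 0.78) and Cst7 (1.56 ± 0.68) were higher under the label WT (unadjusted p under 0.05, limma adjusted p at least 0.88). Over all genes, 2.44% were higher at that unadjusted threshold. Clec7a, a receptor of activated microglia, was at 9.60 and 5.42 CPM on days 7 and 10 under the label WT with 0 reads on day 14, and at 0.223, 0.107 and 1.98 CPM under the label TRPA1-KO. Of 16 tested interferon-stimulated genes, led by Ifit3, all 16 were higher with 8 under a p of 0.05 (Ifit1, Irf7, Rsad2, Oasl2, Ifitm3, Gbp3, Igtp and Cxcl10) and a median of 1.01. At that threshold, 2.4% of all genes were higher between the BCAS groups. The interferon-stimulated sum was 218, 122 and 59.3 CPM under the label WT, 50.8, 48.7 and 71.3 CPM under the label TRPA1-KO, and 54.3 (WT) and 49.1 CPM (TRPA1-KO) in sham. On days 7 and 10 under the label WT this sum was 4.21-fold and 2.35-fold of the sham mean. Ifit3, Bst2, Irgm1 and Iigp1 reached a p under 0.05 against sham (0.78 to 1.23 under the label WT), where 2.44% of all genes were higher. Oasl2 had the highest estimate of that list (1.76 ± 0.38 SE, limma adjusted p = 0.69). Both sums were higher on day 7 than on day 10 under the label WT. For class II, H2-Ab1, H2-Eb1, H2-DMb1 and H2-DMa were likewise higher on day 7 and H2-Aa and Cd74 on day 10.

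**Figure D4:**
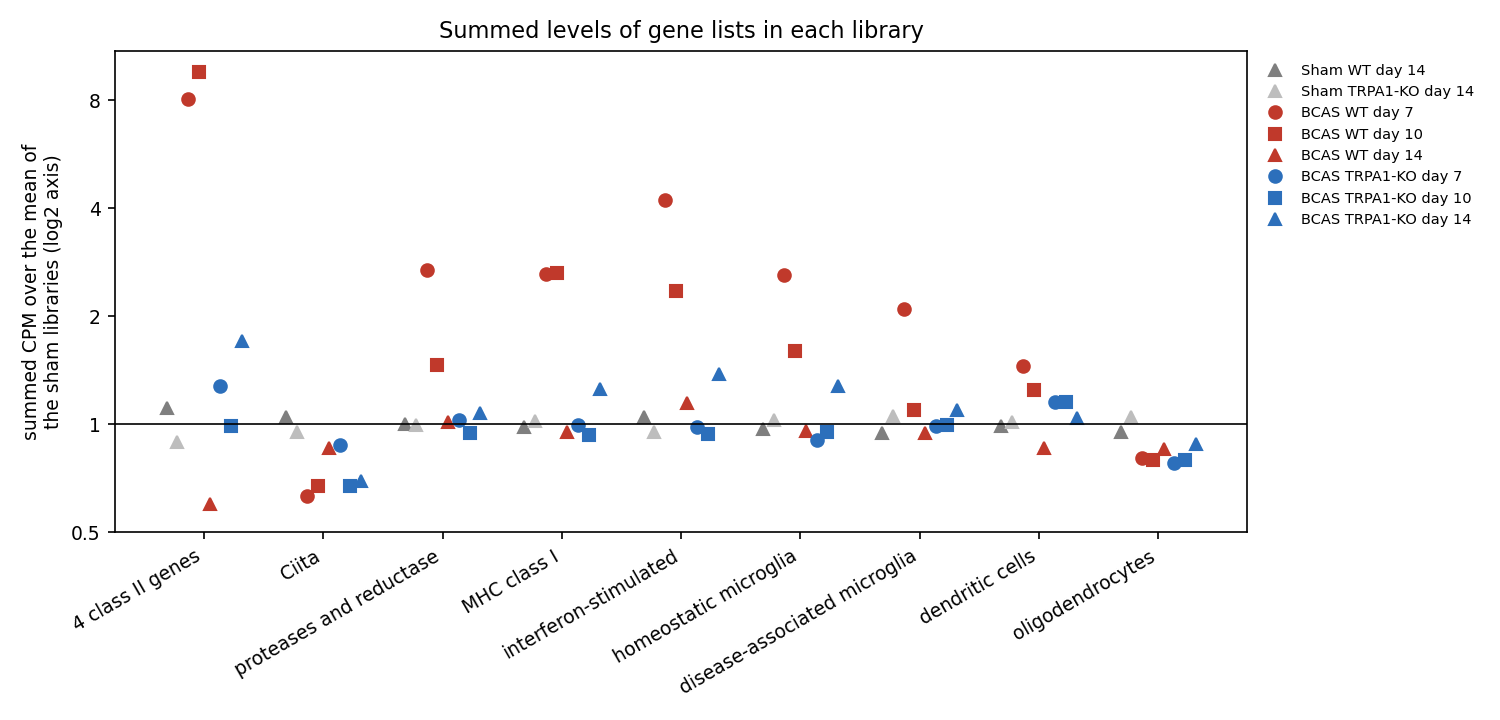
Summed CPM of gene lists in each library over the mean of the 2 sham libraries (log2 axis, colours by group as for the members, circles day 7, squares day 10, triangles day 14). The 4 class II genes (H2-Aa, H2-Ab1, H2-Eb1 and Cd74) reach 8.06 and 9.56 in the libraries labelled WT of days 7 and 10, class I reaches 2.64 and homeostatic microglia 2.61, and Ciita lies under 1 in all 6 BCAS libraries.

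Markers of other cells that can carry class II were also measured, and their part in the class II values was not tested. The 10 dendritic cell markers, led by Siglech, summed to 41.0, 35.2 and 24.2 CPM under the label WT, 32.4, 32.5 and 29.2 CPM under the label TRPA1-KO, and 27.9 (WT) and 28.5 CPM (TRPA1-KO) in sham, most of it from Siglech and Flt3. The defining gene Xcr1 had 1 read in each of the libraries labelled WT of days 7 and 10 (0.0889 and 0.126 CPM) and 0 in the other 6. Clec9a was at 0.623 and 0.504 CPM in these libraries, on 7 and 4 reads, and at 0 to 0.329 CPM elsewhere. For 4 of the 9 dendritic cell markers tested (Clec9a, Cd209a, Siglech and Itgae) these were the 2 highest libraries, as for 8.93% of all genes. The same held for 9 of 10 homeostatic and 6 of 10 disease-associated microglia markers, and for 14 of 16 interferon-stimulated genes. It also held for 3 of 4 monocyte and neutrophil, 1 of 9 border-associated macrophage, 1 of 3 T cell and 0 of 3 B cell markers tested. Between the BCAS groups, 6 of the 9 were higher under the label WT and 3 lower, with a median of 0.13. Flt3 was among the lower, at 10.7, 7.44 and 7.24 CPM under the label WT and 13.4, 9.40 and 7.18 CPM under the label TRPA1-KO. Ccr7 was higher under the label WT (0.50 ± 0.17 SE, limma adjusted p = 0.98), on 0.474 CPM against 0.0347 CPM. The 10 border-associated macrophage markers, led by Stab1, summed to 102, 32.4 and 28.4 CPM, 21.2, 28.0 and 35.5 CPM, and 31.0 and 26.6 CPM in the same order, 3.54-fold of the sham mean on day 7 under the label WT, where Stab1 alone was at 90.4 CPM. Cd163 was lower under the label WT than in sham (-0.63 ± 0.27, limma adjusted p = 0.91). Of the 9 border-associated macrophage markers tested, 6 were higher and 3 lower in that comparison (median 0.17).

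Of the B cell markers, Fcer2a was the most abundant (0.704 to 1.73 CPM), with Ms4a1 and Cd79a at most at 0.126 and 0.219 CPM. The T cell markers, led by Lck, summed to 2.05, 4.91 and 1.21 CPM under the label WT, 0.668, 1.39 and 1.35 CPM under the label TRPA1-KO, and 1.10 (WT) and 1.05 CPM (TRPA1-KO) in sham, with Cd3e at 0.252 CPM on day 10 under the label WT. Lck was higher under the label WT than in sham (0.62 ± 0.25 SE, limma adjusted p = 0.89). The 8 monocyte and neutrophil markers, led by Ly6c2, summed to 11.2, 4.66 and 0 CPM under the label WT, 1.0, 0.320 and 1.25 CPM under the label TRPA1-KO, and 2.43 (WT) and 1.25 CPM (TRPA1-KO) in sham. Under the label WT this sum was 6.10-fold of the sham mean on day 7, and the T cell sum was 4.57-fold on day 10. Ly6g and Blk had 0 reads in every library.

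Oligodendrocyte markers, which fit the white matter tract named in the study's methods, were led by Mbp and summed to between 12932 and 17362 CPM in each library. Their sum was higher in both sham libraries (15827 CPM under WT and 17362 CPM under TRPA1-KO) than in any BCAS library, and it was not higher in the 2 libraries with the most class II reads (13396 and 13194 CPM). Mog, a myelin protein, was lower than in sham under the label TRPA1-KO (-0.73 ± 0.08 SE, limma adjusted p = 0.0461), the sole listed gene past the adjusted threshold in any comparison. In that fit 1 gene in all passed. The number was 0 with no filter or with any BCAS library labelled TRPA1-KO left out. Under the label WT Mog was at 154, 148 and 150 CPM on days 7, 10 and 14, against 168 (WT) and 185 CPM (TRPA1-KO) in sham. It was higher under the label WT between the BCAS groups (0.51 ± 0.08, limma adjusted p = 0.16). Mag and Mal under the label WT and Mobp and Mal under the label TRPA1-KO were also lower than in sham (-0.42 to -0.32, unadjusted p under 0.05). Neuron markers, which mark grey matter, were abundant too, led by Snap25 and at 5578 to 7301 CPM in sum, with Slc17a7 of cortical excitatory neurons at 1024 to 1349 CPM. The sum was lowest in the library labelled WT of day 7. The striatal neuron genes Ppp1r1b (-0.75 ± 0.19 SE and -0.53 ± 0.19) and Drd1 (-0.73 ± 0.19 and -0.47 ± 0.19) were lower than in sham under the labels WT and TRPA1-KO, without overlap. Lower without overlap were 11% of all genes under the label WT and 10.2% under TRPA1-KO. The part of Ppp1r1b and Drd1 in the class II values was not tested. Of the 8 neuron markers, 3 were higher and 5 lower than in sham under the label WT. Under the label TRPA1-KO, 5 were higher and 3 lower. Astrocyte markers, led by Slc1a2, summed to 6024 and 5624 CPM in the libraries labelled WT of days 7 and 10 and to 4267 to 5527 CPM in the other 6. Within that list Gfap, a filament protein of reactive astrocytes, was at 1415, 1060 and 157 CPM under the label WT on days 7, 10 and 14, at 167, 169 and 427 CPM under the label TRPA1-KO and at 200.4 (WT) and 234 CPM (TRPA1-KO) in sham, high in the libraries with the most class II reads (log2 fold change between the BCAS groups 1.43 ± 0.70 SE, limma adjusted p = 0.98). Its part in the class II values was not tested. Aldh1l1 was higher under the label WT, both against TRPA1-KO (0.46 ± 0.17 SE) and against sham (0.43 ± 0.18). Fibroblast markers, led by Col1a2, summed to 40.8 and 29.4 CPM in that pair of libraries and to at least 13.8 CPM in the others, and Col1a2 was higher under the label WT than in sham (0.62 ± 0.19).

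Endothelial markers, led by Flt1, summed to 316 and 299 CPM in the libraries labelled WT of days 7 and 10 and to 256 to 292 CPM in the others, and pericyte markers, led by Rgs5, to 197 to 225 CPM over all libraries. Pecam1 (0.33 ± 0.14 SE) and Ly6c1 (0.27 ± 0.10) were higher under the label WT between the BCAS groups, and Cdh5 (0.48 ± 0.21) and Pdgfrb (0.34 ± 0.12) against sham, each with an unadjusted p under 0.05. Against sham under the label WT, 4 of the 6 pericyte markers were higher and 2 lower. Rgs5 was at 94.4, 108 and 109 CPM under that label on days 7, 10 and 14, against 123 (WT) and 111 CPM (TRPA1-KO) in sham. Blood markers, led by Hba-a1, ranged from 1.11 CPM (label TRPA1-KO, day 7) to 202 CPM (TRPA1-KO sham) and stood at 4.45 and 132 CPM in the 2 libraries with the most class II reads. Ependymal and choroid plexus markers, led by Foxj1, summed to 16.8 to 29.4 CPM. Under the label TRPA1-KO against sham, 2 of the 6 were higher, among them Kl (0.51 ± 0.20 SE), and 4 were lower (median -0.10). Hba-a1 and Hba-a2, equal to each other in every library, were lower under the label TRPA1-KO than in sham (-3.01 ± 1.33), and Alas2 was higher over all WT than over all TRPA1-KO libraries (0.39 ± 0.18), each with an unadjusted p under 0.05. All 5 blood markers were lower than in sham under both labels, with a median of -2.20 under WT and -2.06 under TRPA1-KO. In the comparison of all WT with all TRPA1-KO libraries, 1 of the 5 blood markers, Alas2, was higher and 4 were lower (median -0.25).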

How the data were processed

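RNA of the corpus callosum was measured in 8 libraries. Per the study's methods, polyadenylated RNA was made into libraries with the NEBNext Ultra kit and sequenced on a NovaSeq 6000, and mapping by the authors used HISAT (2.1.0) and GRCm38, gene counting subread (2.0.1) and normalization edgeR (3.34.1). The gene annotation and the strand setting are not given in the sources used here. The deposited signal is gene counts divided by edgeR's effective library size and scaled to CPM by the authors. In each library all values (100%, within 0.001 of a whole number) came out as whole reads once divided by what 1 read is worth, so read counts were recovered (7896071 to 12952093 per library). Exact Clopper-Pearson intervals and the floor of 3 reads cover counting error only. Low values rest on few reads, which limits their precision.

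The test was limma (lmFit, eBayes with trend; version 3.58.1, R 4.3.3) on log2(CPM + 1) of the 18123 genes whose mean reached 0.1 CPM, with Benjamini-Hochberg adjustment over all of them. Comparisons of the BCAS groups used 6 libraries, those with sham used 8 in 1 fit of 3 groups, and all WT against all TRPA1-KO used 4 and 4. Single members also had two-sided exact permutation tests. The study's methods describe a sample as coming from 1 mouse. With 1 library a day, p-values measure the spread between these libraries, days included. Run on these reads, the quasi-likelihood test of edgeR 4.0.16 called 948 genes between the BCAS groups with a p under 0.05 and 2 after adjustment, and DESeq2 version 1.42.0 called 595 and 17, where limma called 761 and 3. Scripts were tested on simulated data. Other steps used Python version 3.11.15, pandas version 2.3.3 and scipy version 1.17.1.

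The members and the gene lists were chosen with earlier results of these data known. Genes named are the 7 members, Trpa1, each list's most abundant gene and genes with an unadjusted limma p under 0.05 in a comparison, and the 10 genes most like the chains (highest Pearson correlation, mean of at least 1 CPM). Other genes named, such as defining markers at or near 0, were chosen after their values were seen. Some genes that meet this rule are not reported here. Of 203 listed symbols, 6 were not among the measured symbols and were not used here. Positions and promoters come from RefSeq GRCm38.p6, overlaps and transcript lengths from GENCODE M21. Alternatives covered the pseudocount (0.1), the filter (none, or 1 CPM), the robust option, equalized medians, both count tests, replicate blocks, other sham or library sets and each library left out in turn.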

Additional observations from a re-analysis of the deposited data

Results flagged for a closer look

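For 6 members the difference between the BCAS libraries labelled WT and TRPA1-KO had one direction on days 7 and 10 and the opposite on day 14, on the log2(CPM + 1) scale. The day 14 values were -0.70 for H2-Aa, -0.29 for H2-Ab1, -0.39 for H2-Eb1, -0.53 for Cd74, -0.32 for H2-DMa and -0.89 for H2-DMb1. With 1 library for each label and day, the difference between days was not tested.

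Among the 4 libraries labelled WT, Trpa1 stood apart in the sham library (0.0782 CPM, 1 read) because the other libraries of that label had 0 reads. The gap rule used here passes about 1 group in 20 by chance, and 16 groups were tested, of which the 14 of the members gave none.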

How the results depend on the processing

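The members' median log2 fold change stayed above 0 under each alternative for the 3 comparisons with a WT group first. Count tests, which add no pseudocount of 1, gave larger medians. Between the BCAS groups it was 1.91 with edgeR and 1.93 with DESeq2 (0.75 by limma), for BCAS WT against sham 1.78 with either tool (0.76), and for all WT against all TRPA1-KO 1.64 with edgeR and 1.68 with DESeq2 (0.55). With a library left out, the medians lay between 0.47 and 1.42, between 0.46 and 1.26 and between 0.28 and 0.90 in these comparisons, highest without the library labelled WT of day 14. For BCAS TRPA1-KO against sham (0.08) they lay between -0.17 and 0.17, on both sides of 0, and 0 members had a p under 0.05 in each setting, where 496 genes in all had one in the reported fit and 191 to 735 in the alternatives.

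The number of members with a p under 0.05 was less stable. Between the BCAS groups it was 1, and 0 with no filter or the robust option, 2 with equalized medians, 3 with edgeR, 4 with DESeq2, 3 with all 8 libraries in 1 fit, and 0 to 5 with a library left out. Of all 18123 genes tested (20587 with no filter, 15152 with the filter at 1 CPM) this threshold was passed by 761, and by 952, 714, 777, 948, 595, 979 and 325 to 1846 in these settings in turn. Against sham under the label WT it was 3, and 1 with a pseudocount of 0.1, with no filter or with a filter at a mean of 1 CPM, 0 with the robust option or the WT sham library alone, and 0 to 6 with a library left out, where over all genes it was 988, and 1011, 1081, 869, 948, 359 and 357 to 2013 in turn. For all WT against all TRPA1-KO it was 1, and 0 with a pseudocount of 0.1, no filter, a filter at a mean of 1 CPM or the robust option, 2 with edgeR, 3 with DESeq2, and 0 to 4 with a library left out, where over all genes it was 714, and 715, 845, 581, 678, 863, 623 and 490 to 1064 in turn.

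Correlations of the deviations of same-day libraries were -0.10, 0.0051 and -0.26 over 10744 genes, so these libraries share only a day. With the day as a replicate block, 3 members and 632 genes in all had a p under 0.05 between the BCAS groups, and with operation and day as a replicate block 2 members and 685 genes did over all 8 libraries.

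Ciita, whose estimates lie near 0, changed sign between the BCAS groups, with -0.15 to 0.050 over the left-out libraries, and over all 8 libraries with edgeR (0.012), with DESeq2 (0.012) and with 4 of the left-out libraries (-0.12 to 0.082 over all of them). For BCAS TRPA1-KO against sham, the values with a library left out spanned 0 for H2-Ab1 (-0.38 to 0.0096), H2-Eb1 (-0.16 to 0.32), H2-DMa (-0.30 to 0.032) and H2-DMb1 (-0.17 to 0.33). The cause was not tested. The chains rest on 0 to 8 reads in most libraries, and each day and label on 1 library.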
